A study of Mus musculus with 48 samples.

Results

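Tubulins, kinesins and dyneins make up the tracks and motors of the microtubule system, and their mRNAs were followed in fibroblast lines with and without TTP. Microtubules are built from dimers of alpha and beta tubulin and are started by gamma tubulin at the centrosome. Most kinesins carry cargo toward the growing microtubule end or move the chromosomes and spindle of a dividing cell, while cytoplasmic dynein 1 carries cargo toward the cell centre and dynein 2 works in the return traffic of the primary cilium. TTP, the zinc finger protein encoded by Zfp36, binds AU-rich elements in mRNA and speeds the loss of the transcripts that carry them.

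The genes were those whose only symbol in the platform annotation begins with Tuba, Tubb, Tubg or Kif and a number, or with Dync, with 1 gene left out. They numbered 58 of the 18193 genes that have a probe set with a single symbol, and each was represented by the probe set that was brightest on average over the 48 arrays. Of the 58, 47 passed the filter on low signals and were tested. These were 3 alpha tubulins, 6 beta tubulins, 2 gamma tubulins, 8 mitotic kinesins, 11 transport kinesins, 10 other kinesins, 5 subunits of cytoplasmic dynein 1 and 2 subunits of dynein 2. The other 11 (Tuba3b, Tubb1, Tubb4a, Kif13b, Kif14, Kif15, Kif17, Kif18b, Kif21b, Kif27 and Kif28) had mean log2 signals of 7.83 to 8.45 and were not tested. The filter let a gene through if 4 arrays lay above their median, so a gene high in only 1 line could pass, and counts over the 47 are given as descriptions.

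The KO line (TTP -/-) and the WT line (TTP +/+) came from littermate embryos (E14.5), bred from TTP +/- parents of strain 129/B6, from the whole embryo without head and organs. By the labels there was apparently 1 line of each genotype, so genotype and line cannot be told apart. Both lines were deprived of serum for 16 h (0.5% serum) and then stimulated with 10% serum for 90 min. Actinomycin D, which blocks transcription, was then added, at 5 µg/ml by the series text and 0.5 µg/ml by the sample labels, and the sources do not settle which was used. RNA was taken at 0, 30, 60, 90 and 120 min, each sample from 3 combined dishes. Each of the 5 experiments, on separate days, treated the KO and the WT line together. This gave 5 arrays per group except for KO at 0 min (4 arrays, experiment 5 missing) and KO at 60 min (4 arrays, experiment 4 missing), 23 KO and 25 WT arrays in all. The p-values measure the spread between cultures of these lines. The main fit counted each array as a replicate and left out the experiment, although arrays of an experiment share a day. The p-values over all times and of slopes thus do not measure the spread between the 5 experiments.

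All values are log2 signals of Affymetrix arrays. The array medians lay between 8.47 and 8.56 and the 5th percentiles between 8.02 and 8.13, so differences of probe sets near 8 are compressed. Zfp36 itself, on the 1 probe set tested, had 9.28 to 9.60 in KO and 9.69 to 10.14 in WT at 0 min, and where its probes lie relative to the disruption is not given. Of 14 fibroblast markers, 13 lay above the array median in KO and 12 in WT at 0 min, with Thy1 at the floor in both. The lines still differed in these markers. Over all times, 5 of the 13 tested were higher and 5 lower in KO (limma, adjusted p below 0.05). The same test called 27.3% of all probe sets higher and 25.6% lower. At 0 min Postn averaged 9.56 in KO and 11.52 in WT, and Pdgfra 10.43 in KO and 9.25 in WT. These cultures hold many cells, and fewer cells of a type cannot be told apart from less RNA per cell.

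The first comparison asked how far the lines differed in these genes, averaged over the 5 times. Tubb3 and Kif5c were the genes highest in KO relative to WT. Of the 47 genes, 26 passed the threshold (limma, adjusted p below 0.05 over all 27500 probe sets tested), 15 higher and 11 lower in KO. Over all probe sets the same test called 52.9%, with 27.3% higher and 25.6% lower in KO, so the share of these genes was near the background. The median difference (KO minus WT) was 0.02 for the 47 genes and -0.01 for all probe sets. Sizes depend on the background: with each array's 5th percentile subtracted, the differences of the 26 genes were 1.07 to 4.59 times as large (median 1.74), and those of 17 were over 1.5 times as large.

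**Figure D1:**
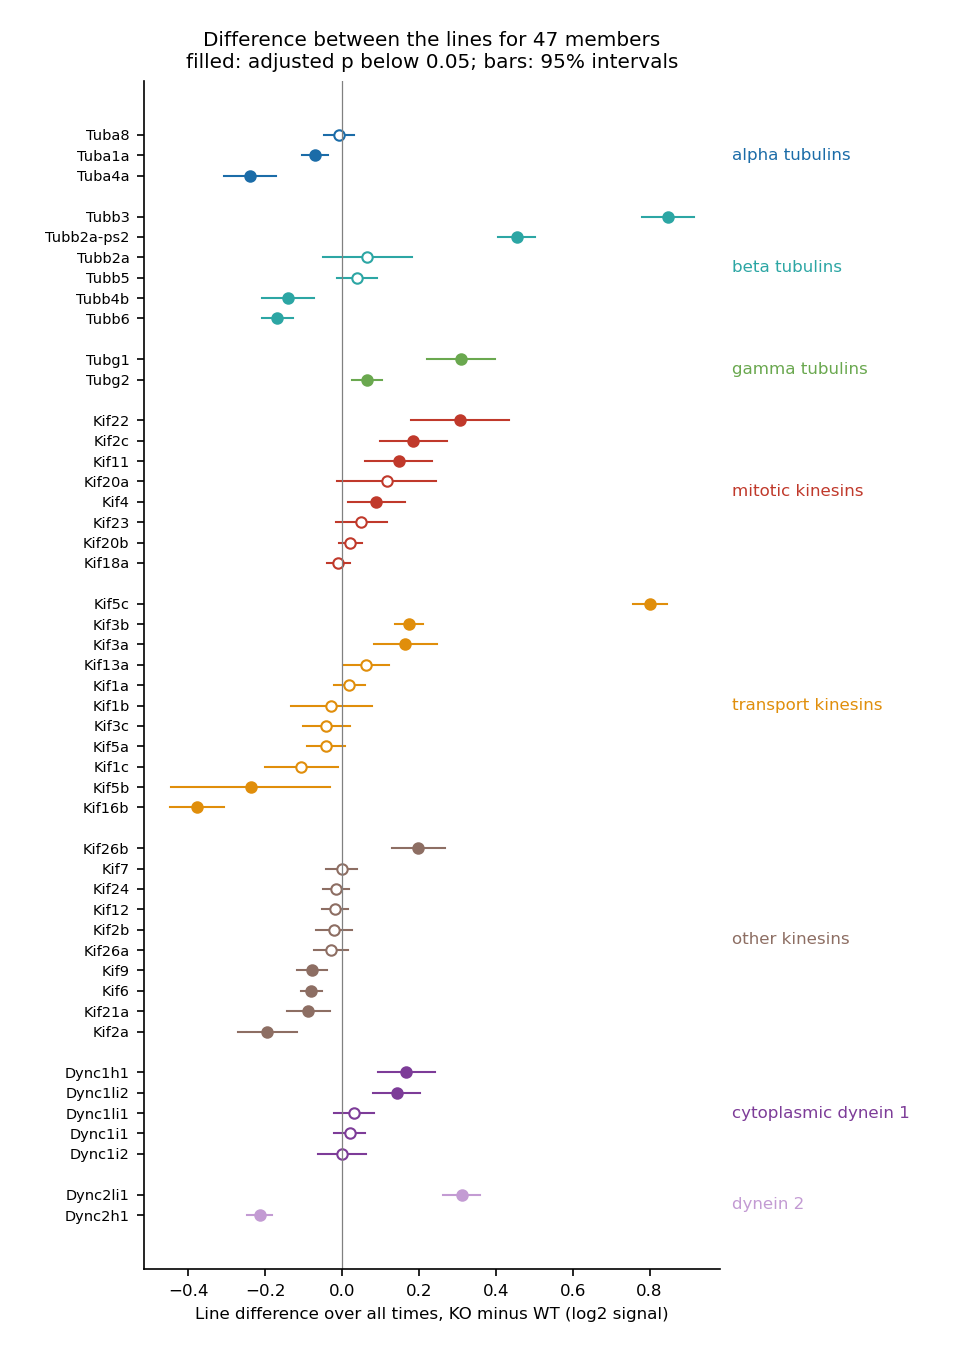
Difference between the lines for the 47 tested genes, grouped by class: log2 signal, KO minus WT, averaged over the 5 times (horizontal axis), with 95% intervals and filled points where the adjusted p is below 0.05. Tubb3 (0.85) and Kif5c (0.80) lie far to the right of the rest, and Kif16b (-0.38) farthest to the left.

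Among the beta tubulins, Tubb3, the isotype known as a marker of neurons, had log2 signals at 0 min of 9.74, 9.72, 9.74 and 9.76 in KO (experiments 1 to 4), against 8.84, 8.80, 9.17, 8.82 and 8.79 in WT (experiments 1 to 5). No KO array overlapped a WT array, and the WT array of experiment 3 stood above the other WT arrays. Over all times the 23 KO arrays ranged from 9.51 to 9.92 with a median of 9.76, and the 25 WT arrays from 8.75 to 9.17 with a median of 8.88. The difference was 0.85 ± 0.033 (SE), or 1.80-fold higher in KO (adjusted p = 1.07e-25), and 1.49 with the background subtracted. It lay between 0.69 and 1.03 in each of the 5 experiments.

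Kif5c, a heavy chain of kinesin-1 that is enriched in neurons, was also higher in KO. Its signals at 0 min were 9.20, 9.20, 9.31 and 9.02 in KO, against 8.29, 8.28, 8.39, 8.38 and 8.43 in WT. The lines did not overlap at any time, with 9.02 to 9.31 over the KO arrays and 8.27 to 8.52 over the WT arrays. The difference was 0.80 ± 0.022 (SE) on the deposited scale (adjusted p = 1.48e-31), and 0.70 to 0.86 by experiment. The WT arrays lay near or below the array medians, so no fold is given, and with the background subtracted the difference was 2.26. The other tested Kif5c probe sets gave smaller differences of 0.22 (adjusted p = 3.45e-09) and 0.03 (adjusted p = 0.224), so the size of the difference rests on 1 probe set. Of 8 neural markers tested, 1 passed the threshold (Gap43, 1.15 higher in KO), and the median difference of the 8 over all times was -0.003. The summed linear signal of the 12 markers with a probe set was 4540 to 4940 in KO and 4110 to 4630 in WT at 0 min. Of the 12, 5 lay above the array median in each line. Gap43 averaged 9.40 in KO and 8.38 in WT at that time. The part of neural markers in the differences of Tubb3 and Kif5c was not tested.

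The remaining kinesin-1 heavy chains did not follow Kif5c. Kif5b, the chain used in most cell types, was 0.24 ± 0.10 (SE) lower in KO (adjusted p = 0.0475). Averaged over the times, it was lower in 5 of 5 experiments by 0.05 to 0.57. Within experiments the direction varied: at 0 min alone KO minus WT was 0.613, 0.279, -1.004 and -0.087 in experiments 1 to 4. Its 4 other probe sets were also lower in KO, by 0.15 to 0.35, and all 4 passed the threshold. The call on the brightest probe set was lost in 9 of the alternative settings (adjusted p = 0.0516 to 0.283). Kif5a, the other neuronal chain, had a mean of 8.51 in KO and 8.56 in WT (adjusted p = 0.159).

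Tubb2a-ps2 is annotated as a pseudogene related to Tubb2a, a beta tubulin that is abundant in brain. It had 9.25, 9.19, 9.26 and 9.29 in KO at 0 min, against 8.84, 8.76, 8.87, 8.78 and 8.79 in WT. No arrays of the lines overlapped at any time, and the difference over all times was 0.45 ± 0.024 (SE), or 1.37-fold higher in KO (adjusted p = 3.29e-21). Its other tested probe set differed by -0.01 (adjusted p = 0.497). Tubb2a itself averaged 11.22 in KO and 11.15 in WT, a difference of 0.07 ± 0.058 (SE, adjusted p = 0.352). With the experiment as a block in the fit, Tubb2a passed, at 0.086 (adjusted p = 0.0106). Beta tubulin genes are close in sequence, and the Tubb2a-ps2 and Tubb2a probe sets carry the platform suffixes for probes that also match other transcripts, so these signals may include related tubulins. Such suffixes are also on the brightest probe sets of Tuba1a, Kif5a, Kif22, Kif2c and Kif16b.

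The widely expressed beta tubulins went lower or did not pass the threshold. Tubb6 averaged 11.36 in KO and 11.53 in WT, and was 0.17 ± 0.020 (SE) lower in KO (adjusted p = 8.23e-10), in 5 of 5 experiments. Tubb4b averaged 10.15 in KO and 10.29 in WT (difference -0.14 ± 0.034 SE, adjusted p = 0.000417), and its 4 other probe sets were lower in KO by 0.08 to 0.15 and all passed. In experiments 4 and 5 alone the difference of Tubb4b was 0.02 (adjusted p = 0.735). Tubb5, the main beta tubulin of dividing cells, averaged 11.87 in KO and 11.84 in WT (adjusted p = 0.219), while a second probe set of the gene was 0.40 higher in KO (adjusted p = 0.00129). In the main fit the beta tubulins thus gave 2 higher, 2 lower and 2 not past the threshold.

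Of the alpha tubulins, Tuba4a, the isotype encoded without the terminal tyrosine of other alpha tubulins, was lower in KO. It had 9.88, 10.11, 10.16 and 10.29 in KO at 0 min, against 10.35, 10.42, 10.34, 10.25 and 10.32 in WT. The lowest 3 values were all KO, and the KO array of experiment 4 lay within the WT range. Over all times the difference was -0.24 ± 0.034 (SE, adjusted p = 5.38e-08), and KO was lower in 5 of 5 experiments, by 0.03 to 0.38. Tuba1a, one of the most abundant alpha tubulins, was 0.07 ± 0.017 (SE) lower in KO (adjusted p = 0.000412). Tuba8, a divergent alpha tubulin, had means of 8.46 in both KO and WT, near the array median (adjusted p = 0.783).

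Tubg1, the main gamma tubulin of the centrosome, had 9.26, 9.33, 9.48 and 9.61 in KO at 0 min, against 9.05, 8.98, 9.20, 9.05 and 9.12 in WT. All 4 KO arrays lay above all WT arrays, although the lines overlapped when later times were included (9.13 to 9.75 in KO, 8.98 to 9.22 in WT). The difference over all times was 0.31 ± 0.044 (SE), or 1.24-fold higher in KO (adjusted p = 7.08e-08), with KO higher in 5 of 5 experiments. Tubg2, the second gamma tubulin gene, was 0.07 ± 0.019 (SE) higher in KO (adjusted p = 0.00403), close to the array median in both lines. The Tubg2 call was lost without experiment 5 (0.05, adjusted p = 0.0677) and in experiments 1 to 3 alone (0.03, adjusted p = 0.267).

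**Figure D2:**
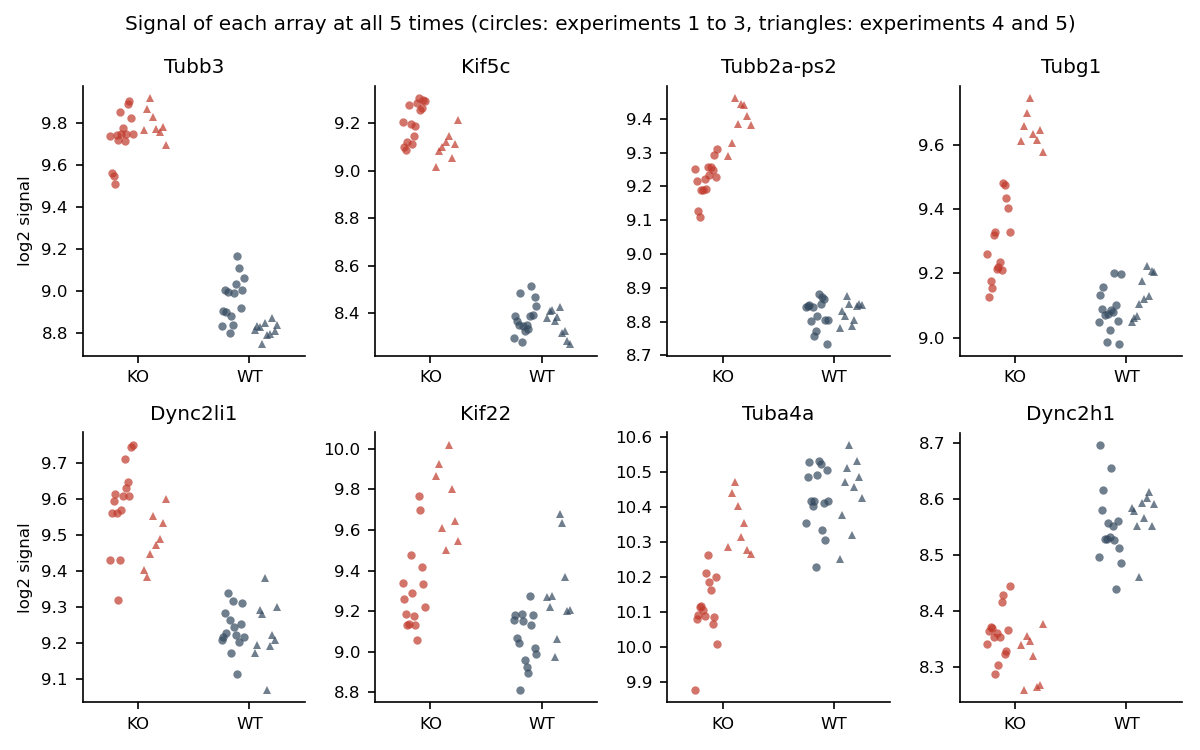
Log2 signal of every array for 8 genes, with KO (23 arrays) left of WT (25 arrays) in each panel and all 5 times shown, circles for experiments 1 to 3 and triangles for experiments 4 and 5. The lines separate without overlap for Tubb3, Kif5c and Tubb2a-ps2, and overlap for Tubg1, Kif22 and Tuba4a, where the KO triangles lie above most KO circles.

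The dynein 2 subunits moved in opposite directions. Dync2li1, the light intermediate chain, had 9.43, 9.32, 9.63 and 9.40 in KO at 0 min, against 9.21, 9.26, 9.11, 9.17 and 9.07 in WT, with no overlap. Its difference over all times was 0.31 ± 0.024 (SE), or 1.24-fold higher in KO (adjusted p = 3.49e-15). Dync2h1, the heavy chain, had 8.34, 8.29, 8.43 and 8.34 in KO at 0 min, against 8.50, 8.53, 8.53, 8.58 and 8.56 in WT, again with no overlap. Its difference was -0.21 ± 0.016 (SE, adjusted p = 1.55e-15), with the KO arrays below the array medians. KO was higher for Dync2li1 and lower for Dync2h1 in 5 of 5 experiments.

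The kinesin-2 motors Kif3a and Kif3b, which carry cargo outward along the same cilium, were both higher in KO. Kif3a averaged 9.81 in KO and 9.64 in WT (difference 0.17 ± 0.041 SE, adjusted p = 0.000632), and Kif3b averaged 8.71 in KO and 8.54 in WT (difference 0.17 ± 0.018 SE, adjusted p = 2.57e-11). The other probe sets of these genes were higher in KO by 0.09 to 0.18 for Kif3a and by 0.15 to 0.28 for Kif3b. Kif3c, a neuronal partner of Kif3a, did not pass the threshold (9.26 in KO and 9.30 in WT, adjusted p = 0.271), nor did Kif7, a kinesin of the ciliary tip that acts in Hedgehog signalling (8.45 in each line). Of 7 ciliated-cell markers tested, a cell-type list and not a list of primary cilium genes, 1 passed (Tekt1, 0.06 lower in KO).

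In cytoplasmic dynein 1, the heavy chain Dync1h1 and the light intermediate chain Dync1li2 were higher in KO and the 3 other subunits did not pass the threshold. Dync1h1 averaged 10.02 in KO and 9.85 in WT (difference 0.17 ± 0.037 SE, adjusted p = 0.000134). Its other tested probe set, near the array median, averaged 8.63 in KO and 8.596 in WT. Dync1li2 averaged 10.12 in KO and 9.98 in WT (difference 0.14 ± 0.031 SE, adjusted p = 0.000102), and its other probe set was 0.11 higher in KO. Dync1i2, the intermediate chain that links the motor to dynactin, had means of 10.36 in KO and 10.35 in WT. The other light intermediate chain, Dync1li1, averaged 9.68 in KO and 9.65 in WT, and Dync1i1, the neuronal intermediate chain, lay near the array median in both lines.

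Of the remaining kinesins, Kif16b, a motor of early endosomes, was the lowest in KO relative to WT, at -0.38 ± 0.035 (SE, adjusted p = 8.32e-13). Kif26b, a kinesin without known motor activity that acts in development, was 0.20 ± 0.035 (SE) higher in KO (adjusted p = 3.51e-06). Kif2a, which shortens microtubules from their ends, averaged 9.90 in KO and 10.09 in WT (difference -0.19 ± 0.038 SE, adjusted p = 2.80e-05). The gap in the group means varied between the times, a pattern that was not tested. At 0 min it was -0.09 (adjusted p = 0.5), with 0.077, 0.022, -0.035 and -0.284 in experiments 1 to 4. At 120 min the means were 9.91 in KO and 9.94 in WT. At 30, 60 and 90 min the means were 9.88, 9.88 and 9.88 in KO, against 10.11, 10.19 and 10.20 in WT. Kif21a, which restrains microtubule growth, was 0.09 ± 0.028 (SE) lower in KO (adjusted p = 0.00765), and its other probe set was 0.43 lower (adjusted p = 3.32e-11). The call on the brighter probe set was lost without experiment 1 (adjusted p = 0.055). Kif6 and Kif9 were lower in KO by 0.08 each (adjusted p = 5.36e-06 and 0.000527), at signals near the array median. Kif1c, a vesicle motor, averaged 9.40 in KO and 9.51 in WT and did not pass the threshold in the main fit (adjusted p = 0.0564). With the experiment as a block Kif1c passed, at -0.103 (adjusted p = 0.0321).

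The mitotic kinesins gave 4 of 8 higher in KO, none lower and 4 not past the threshold, with a median difference of 0.10, against the 52.9% of all probe sets called (27.3% higher). Kif22, a chromokinesin that pushes chromosome arms, had 9.34, 9.48, 9.77 and 9.87 in KO at 0 min, against 9.15, 9.19, 9.27, 9.27 and 9.68 in WT. The WT array of experiment 5 lay within the KO range and the other WT arrays below it. Over all times Kif22 was 0.31 ± 0.063 (SE) higher in KO (adjusted p = 4.82e-05), and its other probe sets gave 0.16, which passed, and 0.06, which did not. Kif2c, the depolymerase of kinetochores, was 0.19 ± 0.043 (SE) higher (adjusted p = 0.000315). Kif11, which slides spindle microtubules apart, was 0.15 ± 0.043 (SE) higher (adjusted p = 0.00309), a call lost without experiment 4 (0.10, adjusted p = 0.0656) and in experiments 1 to 3 alone (0.07, adjusted p = 0.0576). Kif4, a chromokinesin of the central spindle, was 0.09 ± 0.037 (SE) higher (adjusted p = 0.039), a call lost in 6 of the alternative settings. Kif20a and Kif23, motors of the central spindle in cytokinesis, averaged 9.06 and 9.26 in KO, against 8.95 and 9.21 in WT, and did not pass (adjusted p = 0.123 and 0.21). With the experiment as a block both passed, at 0.14 (adjusted p = 0.00144) for Kif20a and 0.06 (adjusted p = 0.038) for Kif23.

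At 0 min alone, 13 of the 47 genes passed the threshold, 9 higher and 4 lower in KO, against 25.3% of all probe sets (13.4% higher and 11.9% lower). The median difference was 0.03 for these genes and 0.01 for all probe sets. With the experiment as a block, the count was 20. Tubb3 differed by 0.86 ± 0.077 (SE, adjusted p = 2.46e-12), Kif5c by 0.83 and Kif16b by -0.59. With the background subtracted these were 1.53, 2.34 and -0.99, so the order of Tubb3 and Kif5c depended on the scale. Both gamma tubulins and both dynein 2 subunits passed. Without the block 0 of the 8 mitotic kinesins passed, while with it Kif22 (0.37, adjusted p = 6.41e-05) and Kif2c (0.23, adjusted p = 0.00284) did. The calls on Kif26b (0.24), Dync1h1 (0.24), Kif3b (0.13), Kif6 (-0.09) and Tubg2 (0.13) were each lost in 4 or more alternative settings, and that on Tuba4a (-0.23) without experiment 1 (adjusted p = 0.265) or 2 (0.144).

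The line difference of several tubulins and mitotic kinesins varied between experiments. The main component of the deviations within groups, which held 33.9% of their variance, separated the 30 arrays of experiments 1 to 3 from the 18 arrays of experiments 4 and 5. These sets were thus chosen from the same arrays, and each experiment gives 1 value of KO minus WT, so what follows is a description with no test. For 13 of the 47 genes both values of experiments 4 and 5 lay above the 3 values of experiments 1 to 3, and for 4 genes both lay below. Over all probe sets the shares were 18.3% above and 17.4% below. By class, 5 of 6 beta tubulins, 4 of 8 mitotic kinesins, both gamma tubulins, 1 alpha tubulin (Tuba4a) and 1 other kinesin (Kif2b) lay above. Of the 11 transport kinesins, 0 lay on either side, and the 4 genes below were Kif26b, Dync1i2, Dync1li1 and Dync2h1.

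**Figure D3:**
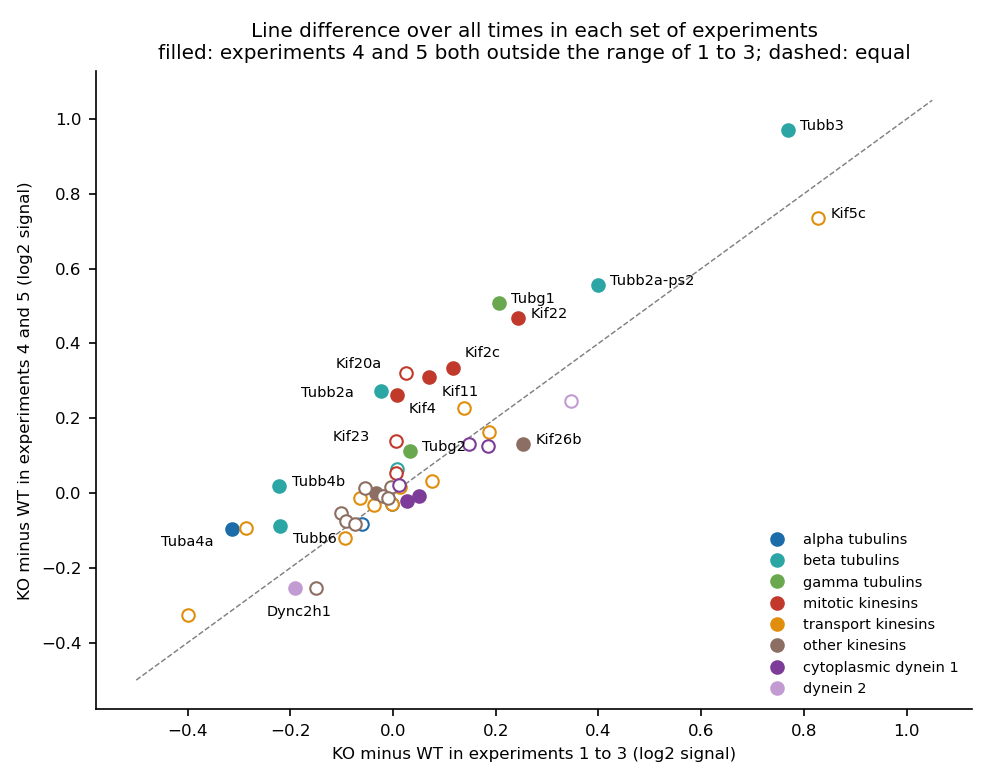
KO minus WT over all times (log2 signal) in experiments 4 and 5 (vertical axis) against that in experiments 1 to 3 (horizontal axis) for 47 genes, coloured by class and filled where both values of experiments 4 and 5 lie outside the range of experiments 1 to 3. The 13 filled points above the dashed line of equality include 5 beta tubulins and 4 mitotic kinesins.

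Kif11 was among the genes above. In experiments 4 and 5 its signal was 8.83 to 9.13 in KO (median 8.98, 8 arrays), against 8.52 to 8.84 in WT (median 8.65, 10 arrays). In experiments 1 to 3 it was 8.48 to 8.88 in KO (median 8.60, 15 arrays), against 8.36 to 8.71 in WT (median 8.55, 15 arrays). The KO arrays of the later experiments thus lay almost wholly above the WT arrays, while the lines overlapped in the earlier ones. The line difference was 0.31 in experiments 4 and 5 and 0.07 in experiments 1 to 3 over all times, and -0.03, 0.05, 0.20, 0.37 and 0.28 in experiments 1 to 5.

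Tubb2a had ranges that barely overlapped in the later experiments. In experiments 4 and 5 it ranged from 11.35 to 11.64 in KO, against 11.14 to 11.41 in WT. In experiments 1 to 3 it ranged from 10.88 to 11.20 in KO, against 10.95 to 11.29 in WT. By experiment its line difference was -0.07, -0.03, 0.03, 0.25 and 0.28. Kif4 likewise gave -0.03, 0.01, 0.05, 0.34 and 0.22. Kif20a gave -0.10, -0.09, 0.27, 0.42 and 0.24 and Kif23 gave -0.07, 0.00, 0.08, 0.23 and 0.07, so in both genes experiment 3 exceeded experiment 5 and the sets overlapped. Tubg1, Tubb3 and Kif22 were higher in KO in all 5 experiments, with means of 0.51, 0.97 and 0.47 in the later set and 0.21, 0.77 and 0.24 in the earlier one. For Tuba4a, Tubb4b and Tubb6, all lower in KO over all times, the differences were -0.10, 0.02 and -0.09 in the later set and -0.31, -0.22 and -0.22 in the earlier one.

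Proliferation markers also varied between these experiments. Of 17 tested, 14 were higher in KO over all times and 0 lower (median difference 0.30), against 27.3% higher and 25.6% lower over all probe sets. For 8 of the 17 both values of experiments 4 and 5 lay above those of experiments 1 to 3, and for 0 below, against 18.3% and 17.4% of all probe sets. Their summed linear signal at 0 min was 11800 to 16300 in KO and 10500 to 12600 in WT, with Aurka at the floor in WT. Their part in the differences of the mitotic kinesins and tubulins was not tested. KO at 0 min had 1 array in experiments 4 and 5, so the sets cannot be compared at that time alone.

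The promoters of the mitotic kinesins are shown because many genes of the late cell cycle carry the sequence TTTGAA, the core of an element called CHR, close to the transcription start, where repressor and activator complexes bind in turn. RefSeq windows (GRCm38.p6) of 300 bases, from 250 before to 50 after the start, were found for 47 of the 58 genes. TTTGAA, read on both strands, was present in 9 of 10 windows of mitotic kinesins (90.0%) and 5 of 42 windows of the other genes (11.9%), against 9 of 17 windows of proliferation markers (52.9%) and 17.9% of all 32851 windows. It lay within 25 bases of the start in 7 of the 10, against 2.65% of all windows. CCAAT, also on both strands, was present in 60.0% of the mitotic kinesin windows, 38.1% of those of the other genes, 94.1% of those of proliferation markers and 37.4% of all. The matches are descriptions of sequence. The stretches below run from 110 bases before to 30 after the start on the gene's strand, with TTTGAA or its reverse complement TTCAAA in capitals.
Kif11 (chr19:37376272-37376411, plus strand): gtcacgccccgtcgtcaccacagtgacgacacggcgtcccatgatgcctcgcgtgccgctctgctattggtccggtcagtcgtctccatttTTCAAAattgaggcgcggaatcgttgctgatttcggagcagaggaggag
Kif22 (chr7:127042391-127042530, minus strand): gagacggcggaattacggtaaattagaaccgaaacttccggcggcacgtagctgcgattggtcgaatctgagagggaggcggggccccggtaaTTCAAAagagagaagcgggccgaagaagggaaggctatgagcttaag
Kif23 (chr9:61946770-61946909, minus strand): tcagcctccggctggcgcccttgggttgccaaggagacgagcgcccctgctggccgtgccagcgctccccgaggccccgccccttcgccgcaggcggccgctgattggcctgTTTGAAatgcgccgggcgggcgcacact
Kif2c (chr4:117178743-117178882, minus strand): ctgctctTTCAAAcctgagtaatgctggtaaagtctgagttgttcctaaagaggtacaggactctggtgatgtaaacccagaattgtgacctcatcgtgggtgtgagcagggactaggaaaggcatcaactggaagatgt
Kif4 (chrX:100625955-100626094, plus strand): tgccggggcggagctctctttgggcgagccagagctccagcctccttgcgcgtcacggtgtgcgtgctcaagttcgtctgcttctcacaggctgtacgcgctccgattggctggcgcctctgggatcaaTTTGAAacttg
Kif20b (chr19:34922248-34922387, plus strand): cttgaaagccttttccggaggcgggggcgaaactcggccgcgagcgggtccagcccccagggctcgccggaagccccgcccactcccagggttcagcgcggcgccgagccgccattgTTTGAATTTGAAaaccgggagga
Kif18a (chr2:109280628-109280767, plus strand): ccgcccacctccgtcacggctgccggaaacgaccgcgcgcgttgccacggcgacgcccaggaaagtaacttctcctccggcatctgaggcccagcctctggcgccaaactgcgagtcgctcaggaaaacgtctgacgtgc

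Bases were counted from the start as base 1, with bases before it negative. The match shown began at base -19 in Kif11 and at base -17 in Kif22, each on the opposite strand. Kif22 had a further match at base -215, also on the opposite strand and outside the stretch shown. In Kif23, Kif20b and Kif4 the first match began at base 3, base 8 and base 20, and in Kif20b a second match at base 14 followed the first directly. In Kif2c the match began at base -103. Kif18a had none. Its brightest probe set did not pass the threshold between the lines (-0.01, adjusted p = 0.626), although its other probe set was 0.13 higher in KO. Kif20b, with matches near the start, did not pass either (0.02, adjusted p = 0.232), nor did Kif23 in the main fit. The part of these matches in the line differences was not tested.

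The next comparison asked which of these mRNAs fell or rose after transcription was blocked. In KO, 3 of the 47 genes passed the threshold between 120 and 0 min, 1 higher and 2 lower at 120 min, against 22.5% of all probe sets (11.9% higher and 10.6% lower). In WT, 4 passed, 1 higher and 3 lower, against 24% of all probe sets (10% higher and 14% lower). With the experiment as a block, the counts were 10 in KO and 10 in WT. A straight line over all 5 times, chosen after seeing the data, gave 6 in KO, 3 rising and 3 falling, against 27.3% of all probe sets (15% rising and 12.3% falling). In WT it gave 9, 4 rising and 5 falling, against 29% of all probe sets (13.9% rising and 15.1% falling). The median change was 0.00 in KO for these genes and 0.01 for all probe sets, and 0.03 in WT for both. Since the arrays were brought to nearly the same median, a change is relative to the other transcripts.

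**Figure D4:**
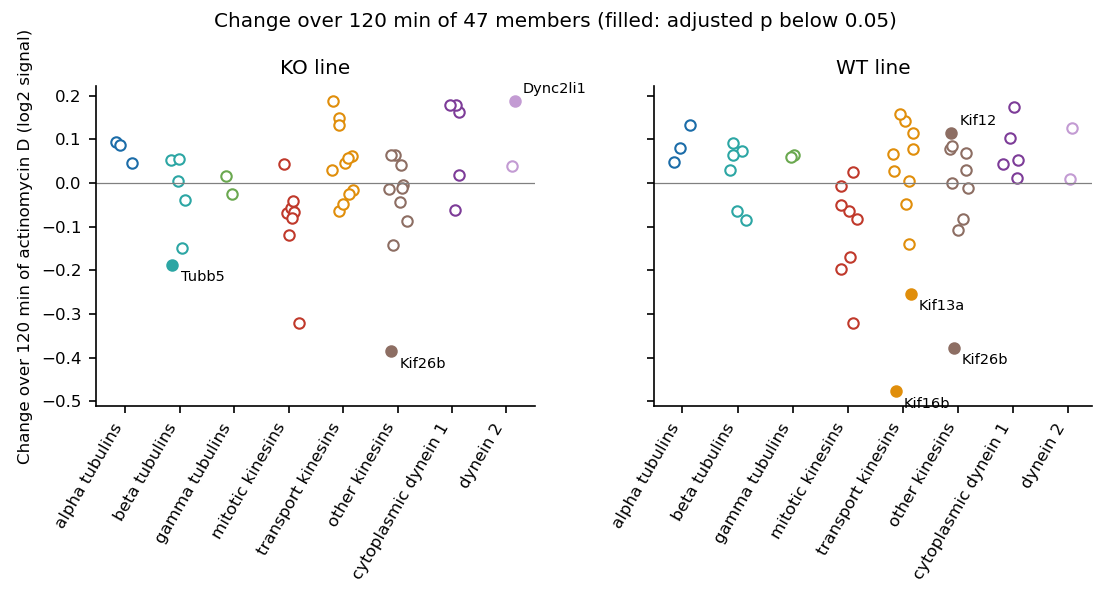
Change over 120 min of actinomycin D (log2 signal, 120 min minus 0 min) of the 47 genes by class, in KO (left) and in WT (right), filled where the adjusted p is below 0.05. Most points lie between -0.2 and 0.2, with Kif26b lowest among the filled points in KO and Kif16b, Kif26b and Kif13a lowest among those in WT.

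Kif26b fell in both lines. In KO it had 8.89, 8.76, 8.81, 8.88 and 8.96 at 120 min, against 9.30, 9.09, 9.30 and 9.30 at 0 min. In WT it had 8.55, 8.57, 8.58, 8.70 and 8.76 at 120 min, against 8.94, 8.85, 8.83, 9.12 and 9.31 at 0 min. All arrays at 120 min lay below all arrays at 0 min within each line. The change was -0.39 in KO (adjusted p = 0.000308) and -0.38 in WT (adjusted p = 0.000132), and the slopes of the lines were not called different.

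Kif22 was lower by 0.32 at 120 min in each line but did not pass (adjusted p = 0.11 in KO and 0.0837 in WT). It had 9.14, 9.06, 9.22, 9.50 and 9.55 in KO at 120 min, against 9.34, 9.48, 9.77 and 9.87 at 0 min, and 8.81, 8.90, 8.99, 9.06 and 9.21 in WT at 120 min, against 9.15, 9.19, 9.27, 9.27 and 9.68 at 0 min. Every experiment with both times showed a lower value at 120 min, and the ranges of the times overlapped. With the experiment as a block the change passed in both lines, at -0.39 in KO (adjusted p = 3.93e-05) and -0.32 in WT (adjusted p = 0.000213). Its straight-line slopes also passed, at -0.19 per hour in KO (adjusted p = 0.0179) and -0.18 in WT (adjusted p = 0.0182).

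Kif13a, a motor of endosomal and melanosomal cargo, fell by 0.25 in WT (adjusted p = 0.00286). Its WT signals were 8.53, 8.85, 8.83, 8.80 and 8.79 at 120 min, against 9.03, 9.05, 8.87, 9.06 and 9.04 at 0 min, with no overlap. The call was lost without experiment 1 (adjusted p = 0.053), which held the lowest array. In KO, Kif13a averaged 8.97 ± 0.089 at 120 min (SD, n = 5) and the change was not past the threshold (-0.06, adjusted p = 0.58). The difference of the slopes between the lines was 0.07 and did not pass.

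The other calls were small. Tubb5 fell by 0.19 in KO, with 11.77, 11.86, 11.69, 11.74 and 11.72 at 120 min, against 11.98, 11.93, 12.04 and 11.82 at 0 min (adjusted p = 0.0188), and the array of experiment 2 at 120 min overlapped that of experiment 4 at 0 min. Dync2li1 was 0.19 higher at 120 min in KO (adjusted p = 0.011), with 9.56, 9.71, 9.75, 9.55 and 9.60 at 120 min. Kif12, a kinesin described in kidney and liver epithelium, was 0.11 higher at 120 min in WT (adjusted p = 0.0163), near the array median. The Tubb5 call was lost without experiment 1 (adjusted p = 0.0735) or 3 (0.182), the Dync2li1 call without experiment 2 (0.206), and the Kif12 call in 6 of the alternative settings.

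Other probe sets of these genes showed falls that the brightest ones did not. For Kif1b, a motor of mitochondria and synaptic vesicle precursors, 3 of 7 tested probe sets fell in WT by 0.17 to 0.21, while the brightest changed by -0.05 (adjusted p = 0.796). A dimmer probe set of Kif3a fell in both lines, by 0.20 in KO and 0.28 in WT. A dimmer probe set of Kif13b, a relative of Kif13a whose brightest set was not tested, fell by 0.19 in KO and 0.23 in WT. Dimmer probe sets of Kif20b and Kif18a fell in KO, by 0.27 and 0.16.

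The comparison for which the series was made asked whether an mRNA was lost at a different rate without TTP. Kif16b was the 1 gene of the 47 that passed, with a slope (log2 signal per hour) less negative in KO, against 1.04% of all probe sets (0.785% higher and 0.251% lower in KO). The median slope difference was -0.01 for these genes and 0.00 for all probe sets. At 0 min Kif16b had 9.13, 8.94, 9.10 and 9.15 in KO, against 9.82, 9.64, 9.42, 9.74 and 9.72 in WT, and no arrays overlapped. At 120 min it had 8.998, 9.09, 9.11, 9.14 and 9.20 in KO, against 9.01, 9.32, 9.21, 9.17 and 9.24 in WT, and the lines overlapped.

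The KO means at 0, 30, 60, 90 and 120 min were 9.08, 9.15, 9.05, 9.07 and 9.11, and the WT means were 9.67, 9.57, 9.50, 9.40 and 9.19. The KO line was thus low from the start and stayed level, and the WT line came down to it. The slope difference (KO minus WT) was 0.22 ± 0.048 (SE, adjusted p = 0.00862). By experiment, the KO slopes were -0.07, 0.07, -0.03, -0.02 and -0.05, against -0.37, -0.17, -0.09, -0.25 and -0.24 in WT. Every KO slope lay above every WT slope.

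The line difference of Kif16b was -0.59 ± 0.081 (SE) at 0 min (adjusted p = 1.32e-07) and -0.08 at 120 min (adjusted p = 0.42). A second probe set gave 9.004, 8.96, 9.07 and 9.02 in KO, against 9.58, 9.48, 9.21, 9.41 and 9.35 in WT at 0 min. On it the slope difference was 0.16 ± 0.035 (SE, adjusted p = 0.0062), and the WT line fell by 0.35 over 120 min while the KO line changed by 0.00. The slope call on the brighter probe set was lost without experiment 1 (adjusted p = 0.092), 4 (0.0841) or 5 (0.0558), in experiments 1 to 3 alone (0.18), and without the arrays at 0 min (0.221). Its value kept the same sign in these settings, at 0.20 to 0.22 per hour.

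**Figure D5:**
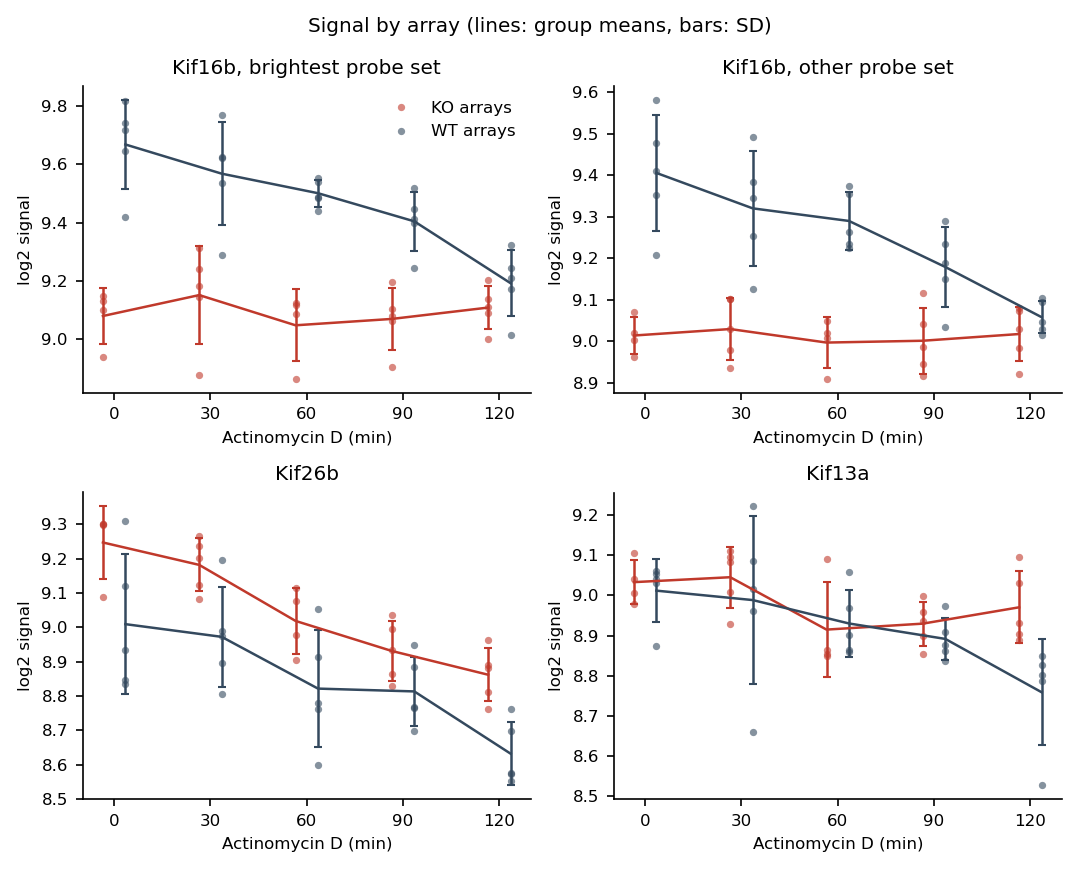
Log2 signal against minutes of actinomycin D for Kif16b (both tested probe sets), Kif26b and Kif13a, with each array as a point, KO drawn just left of WT at each time, lines through the group means and bars of 1 SD. Kif16b is level near 9.1 in KO and comes down in WT to 9.19 at 120 min, while Kif26b falls in both lines.

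For the other 46 genes the slope difference ran from -0.07 (Kif2b) to 0.07 (Kif13a) and did not pass the threshold. The 95% intervals of 45 of them lay between -0.21 (Tubb2a) and 0.23 (Kif20a) log2 units per hour. That of Kif5b was wider, from -0.32 to 0.25. Tubb3 and Kif5c, which differed most in level, changed over 120 min by 0.00 and 0.06 in KO and by 0.07 and 0.03 in WT, and none of these changes passed.

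The Kif5b signal was uneven between experiments. In experiments 1 to 3 its 30 arrays ran from 10.23 to 11.48 (SD 0.41), and in experiments 4 and 5 its 18 arrays ran from 11.06 to 11.40 (SD 0.09). Its 4 other probe sets were also wider in experiments 1 to 3 (SD 0.18 to 0.28, against 0.08 to 0.18). The median SD within a group was 0.10 over these genes and 0.08 over all probe sets tested.

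The partners of these motors and tubulins were counted from lists of known components, against 27.3% higher and 25.6% lower in KO over all probe sets. Of 10 dynactin subunits, which couple dynein to cargo, 5 were higher and 2 lower in KO over all times, among them Capza1 (0.23 higher) and Dctn4 (0.14 lower). Of 12 dynein adaptors and regulators, 5 were higher and 2 lower, with Ndel1 0.29, Hook2 0.27 and Pafah1b1 (Lis1) 0.25 higher in KO. Of 5 dynein light chains, 2 were higher and 2 lower (Dynlrb1 0.20 higher, Dynlt1f 0.21 lower). Of 10 kinesin light chains and adaptors, 3 were higher and 3 lower (Fez1 0.34 higher, Trak1 0.27 lower).

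Against the same shares of all probe sets (27.3% higher and 25.6% lower), of 8 components of the gamma-tubulin complex, 3 were higher and 2 lower in KO, with Mzt1 0.23 lower and Nedd1 0.14 higher. Of 21 genes of tubulin folding, 10 were higher and 4 lower, among them the cofactor Tbcb (0.32) and the prefoldin subunit Pfdn4 (0.33). Of 17 genes that modify or sever microtubules, 7 were higher and 2 lower, with the severing enzyme Spast 0.44 higher. Of 30 microtubule-associated proteins, 14 were higher and 7 lower, with Tacc1 0.99 lower and the plus-end protein Mapre1 (EB1) 0.47 higher. Of 4 other kinesins of the kinesin-14 and kinesin-7 families, Kifc1 was 0.05 higher and Kifc2 0.11 lower.

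Several of these partners changed with actinomycin D, against 11.9% higher and 10.6% lower in KO and 10% higher and 14% lower in WT over all probe sets. Of the 12 dynein adaptors, 2 fell over 120 min in KO (Pafah1b1 by 0.48 and Nde1 by 0.22), where Nudc rose by 0.17, and 4 fell in WT (Pafah1b1 by 0.67, Ndel1 by 0.52, Ninl by 0.50 and Nde1 by 0.19). For slopes, 1 of the 12 adaptors and 1 of the 17 genes that modify or sever microtubules passed. No gene of the other partner lists did, and over all probe sets 1.04% passed (0.785% higher and 0.251% lower in KO). The partners were not run through the alternative settings. Ndel1, which binds Lis1 and dynein, had a less negative slope in KO (0.23 ± 0.046 SE per hour, adjusted p = 0.00185). The severing enzyme subunit Katna1 fell by 0.29 in KO and by 0.67 in WT, with a slope difference of 0.17 ± 0.041 (SE, adjusted p = 0.0164). The folding cofactor Tbcc fell by 0.82 in KO and by 0.91 in WT. By contrast, 3 of 5 dynein light chains rose in KO and 4 of 5 in WT, and 4 of 10 dynactin subunits rose in each line, Dctn3 by 0.29 in KO and 0.17 in WT.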

How the data were processed

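RNA of 48 cultures of the KO and WT lines was measured on Affymetrix arrays (Mouse Genome 2.0 by the labels). Per the labels' protocols, 1 µg of total RNA was amplified and 15 µg of cRNA was hybridised for 16 h. The deposited values are log2 signals per probe set, with the log base inferred from their range (up to 13.43), while the sources used here do not give how the authors summarised and normalised the probes. Gene symbols came from the platform annotation.

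Of 45101 probe sets, 64 controls were left out and 27500 with a value above the array median in at least 4 arrays were tested. limma 3.58.1 (R 4.3.3, with data.table in version 1.17.8) was fitted to all 48 arrays with eBayes in trend and robust mode, with 1 mean per group of line and time, or with a straight line of log2 signal on hours per line for slopes. Tests were two-sided, with Benjamini-Hochberg adjustment over the probe sets tested and a threshold of 0.05. The script was tested on simulated data. The number of arrays limits the precision.

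The members and lists were chosen with earlier results of these data known. Named genes were every member past the slope threshold, the 8 highest and 8 lowest past the threshold of the line difference, those past the threshold of the change over 120 min, the 3 brightest of each class, and up to 4 called members of each other list. Others named here, such as Kif3b, Kif4, Kif11, Kif1b and Kif5a, were chosen after their values were seen. The series text says that both lines were run side by side in each experiment, so replicate numbers pair the samples. Same-numbered arrays of the lines correlated in their deviations from group means at 0.07 to 0.46, against -0.10 to -0.01 for other numbers. Alternatives were quantile normalization, a common median, background subtraction, no filter and a stricter one, a plain fit, the replicate block, every probe set, each experiment left out, and the experiment sets 1 to 3 and 4 and 5. The second Kif16b probe set and the straight line per line of cells were added after seeing the data. The experiment sets were seen in these arrays, so the difference between them is described with no test. Calls kept or lost within a set come from fits on fewer arrays and are no independent check.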

Additional observations from a re-analysis of the deposited data

Results flagged for a closer look

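Among 30 named genes in both lines at 0 and 120 min, 9 arrays stood apart from the others of their group, in 120 groups examined, and chance gives about 1 in 20. In KO they were the Kif26b array of experiment 2 at 0 min (9.09), the Tubg2 array of experiment 3 at 0 min (8.67) and the Tuba8 array of experiment 5 at 120 min (8.40). In WT at 0 min they were the Kif13a (8.87) and Tubb3 (9.17) arrays of experiment 3 and the Kif22 (9.68) and Kif2c (8.96) arrays of experiment 5. In WT at 120 min they were the Kif13a array of experiment 1 (8.53) and the Tubb2a-ps2 array of experiment 3 (8.81).

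The slope of Kif16b differed between the lines by 0.22 log2 units per hour (KO minus WT).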

How the results depend on the processing

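Of 656 alternative values of single genes, 582 kept direction and side of the threshold, 72 kept the direction but not the call, and 2 reversed. The reversed values were Tubb4b over all times (0.019) and Tuba4a at 0 min (0.002), both in experiments 4 and 5 alone. With every tested probe set counted, 58 of 98 passed for the line difference over all times, 22 at 0 min, 11 for the change in WT, 8 for the change in KO and 2 for the slope. With the replicate block, which pairs the lines by experiment, the counts were 20 at 0 min, 10 for the change in KO and 10 for the change in WT, and the block moved no other count by over 1.5 times. The change in WT gave 7 with quantile normalization and 8 in experiments 4 and 5 alone. The change in KO gave 5 with a common median and 5 in experiments 1 to 3 alone. A straight line over all times, added after seeing the data, gave 6 for the change in KO and 9 for the change in WT. The slope gave 0 in experiments 1 to 3 alone and 0 without the arrays at 0 min. Leaving out 1 experiment at a time gave 23 to 27 over all times, 10 to 13 at 0 min, 2 to 4 for the change in KO, 3 to 9 for the change in WT (9 without replicate 3) and 0 to 1 for the slope (0 without replicate 1, 4 or 5). The cause of these moves was not tested. Signals near or below the array median limit what can be seen of Tubg2, Kif4, Kif6, Kif9, Kif12 and Dync2h1, and of Kif5c in WT.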
